A study of Mus musculus with 9 samples.

Results

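The 8 genes described are the platelet-derived growth factor (PDGF) ligands Pdgfa, Pdgfb, Pdgfc and Pdgfd, the PDGF receptors Pdgfra and Pdgfrb, the fibroblast growth factor Fgf2 and the receptor Fgfr1. They were taken by symbol from the Entrez gene IDs of the count files, and they are 8 of 18830 genes listed there. All 8 passed the filter on low counts, as did 14741 genes in all. RNA of the suprarenal abdominal aorta of ApoE knock out mice was sequenced in 9 libraries, 3 from each of 3 groups. Mice of the first group received Ang II (angiotensin II, a vasoconstrictor peptide that induces abdominal aortic aneurysm in this strain) for 14 days at 1000 ng/kg/min. Mice of the next group received it at the same dose for 28 days. The third group was a sham control, for which the series' design text names saline and no day of harvest. All 3 groups carry the ApoE deletion, so no group shows the wild-type aorta. Osmotic pumps gave the peptide, which reaches every tissue of the animal, and the labels state neither age nor sex. The labels do not say that libraries came from separate animals, so the p-values measure the spread between these libraries.

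PDGFs are dimers of 2 chains that activate a pair of receptor tyrosine kinases. Pdgfa and Pdgfb chains are secreted in active form after cleavage inside the cell, whereas Pdgfc and Pdgfd carry a CUB domain that proteases must remove outside it. PDGF-A and PDGF-C act mainly through PDGFR-alpha, PDGF-D acts mainly through PDGFR-beta, and PDGF-B binds both. In blood vessels, endothelial PDGF-B recruits pericytes and smooth muscle cells that carry PDGFR-beta, and PDGF-BB lowers contractile genes in cultured smooth muscle cells. FGF2 is stored on heparan sulfate of the matrix and signals through FGFR1 and related receptors to the Ras and MAP kinase pathway.

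The libraries held between 9609690 and 14923936 expected counts, and levels are in CPM (counts scaled to a common library total). Reads of Apoe itself, the deleted gene, were present in all 9 libraries, at 159.7 to 648 CPM at 14 days, 23.0 to 269.8 CPM at 28 days and 22.5 to 87.5 CPM in sham. Which part of Apoe the reads cover is not known, so these values do not check the labels. The samples are titled muscle and their tissue is given as aorta. All 9 smooth muscle markers, among them Acta2 and Myh11, were read in every library. Their summed level was 3943 to 18140 CPM at 14 days, 2285 to 7612 CPM at 28 days and 10530 to 32040 CPM in sham. The 9 macrophage and monocyte markers summed to 2010 to 11110 CPM at 14 days, 1849 to 2990 CPM at 28 days and 287 to 1360 CPM in sham, with none at 0. Libraries also differed within groups. Replicate 2 at 14 days had the highest macrophage sum and the lowest smooth muscle sum of its group. Skeletal muscle markers summed to 12270 CPM in replicate 1 and 4316 CPM in replicate 2 at 28 days, against at most 162.6 CPM in the 7 other libraries, and Myh4 was at 0 in all sham and 14-day libraries. Nerve and Schwann cell markers were high in replicate 1 at 14 days (2331 CPM), replicate 2 at 28 days (2627 CPM) and replicate 2 of sham (5667 CPM), here called nerve-rich, and stood at 1225 CPM in replicate 3 at 28 days and at most 319.5 CPM elsewhere. In these bulk samples fewer cells of a type and less RNA per cell cannot be told apart.

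No member passed an adjusted p of 0.05 in edgeR's quasi-likelihood test in any comparison, and neither did any other of the 14741 genes (0.0% called in each of the 3 comparisons). The changes are therefore given below as values, with the adjusted p and the overlap of the groups. At 28 days the PDGF-A and PDGF-D ligand genes stood below every sham library. At 14 days Pdgfc stood above every sham library in all 3 replicates, and the size of the difference rested largely on replicate 2. Relative to Pdgfa, Pdgfb was highest at 28 days, intermediate at 14 days and lowest in sham, with no overlap among the 3 groups.

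**Figure D1:**
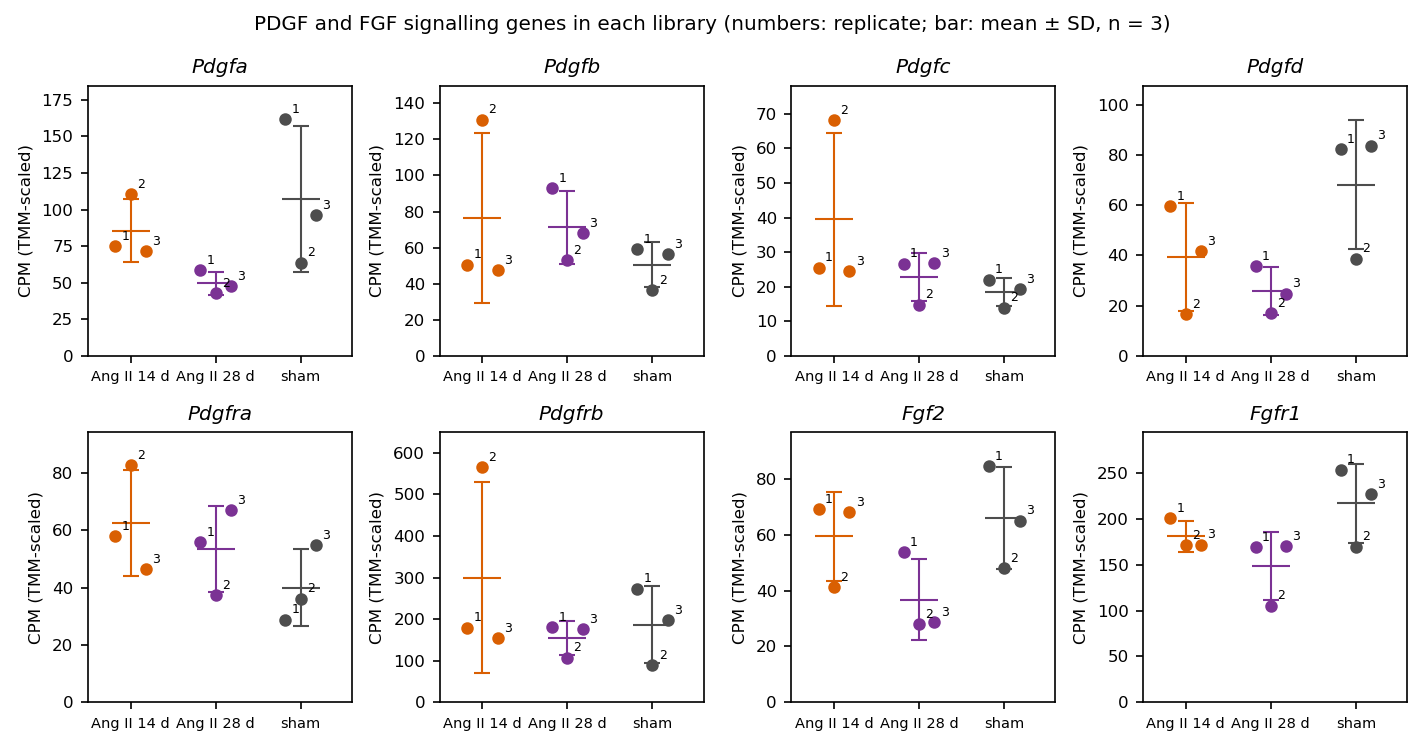
Level of each of the 8 genes in every library, in TMM-scaled CPM, with the Ang II 14-day, Ang II 28-day and sham groups from left to right. Points are libraries and bars are the mean ± SD (n = 3). Pdgfa at 28 days lies at 43.1 to 58.5 CPM, below the 63.65 to 162 CPM of sham, and replicate 2 at 14 days is the highest library for Pdgfb, Pdgfc, Pdgfra and Pdgfrb.

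Pdgfa encodes the PDGF-A chain, which smooth muscle cells make and which acts on PDGFR-alpha (Entrez 18590, ENSMUSG00000025856, GRCm38.p6 chromosome 5, 138976014 to 139000792, minus strand). It had 75.1, 110.5 and 71.35 CPM at 14 days, 58.5, 43.1 and 47.6 CPM at 28 days, and 162, 63.65 and 96.1 CPM in sham. Every 28-day library was below every library of both other groups, while the 14-day and sham libraries overlapped. At 28 days it was 2.15-fold lower than in sham (log2 fold change −1.11 ± 0.34 SE, edgeR adjusted p = 0.234). DESeq2 gave −1.09 with an adjusted p of 0.044, the lone call of DESeq2 among the 8 genes in the 3 comparisons. With 1 library left out at a time, edgeR's log2 fold change stayed between −1.38 and −0.69, and the smallest size came without replicate 1 of sham. Without the 2 libraries rich in skeletal muscle, which leaves 1 library at 28 days, it was −1.17. At 14 days the log2 fold change against sham was −0.32 ± 0.34 (edgeR adjusted p = 0.612), and it was 0.10 without replicate 1 of sham. The 28-day value relative to 14 days was −0.79 ± 0.34 (edgeR adjusted p = 0.77). Beside the 28-day values of Pdgfa, 8 of the 9 smooth muscle markers were lower than in sham at an edgeR p under 0.05. Within the 14-day group, replicate 2 had the highest Pdgfa and the lowest smooth muscle sum. That sum was 3943 CPM, against 18140 and 13400 CPM in replicates 1 and 3. The part of smooth muscle in the Pdgfa values was not tested.

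Pdgfd encodes the PDGF-D chain, a ligand of PDGFR-beta that is cleaved by urokinase (Entrez 71785, ENSMUSG00000032006, GRCm38.p6 chromosome 9, 6168363 to 6534284, plus strand). It had 59.6, 16.7 and 41.6 CPM at 14 days, 35.7, 16.9 and 24.8 CPM at 28 days, and 82.3, 38.7 and 83.6 CPM in sham. All 28-day libraries were below all sham libraries, and the 14-day libraries spanned both. The 28-day level was 2.65-fold lower than in sham (log2 −1.40 ± 0.51 SE, edgeR adjusted p = 0.277, DESeq2 adjusted p = 0.0828), with −1.71 to −1.17 when 1 library was left out. At 14 days it was −0.79 ± 0.50 (edgeR adjusted p = 0.378). Replicate 2 had the lowest Pdgfd and also the lowest smooth muscle sum of the 14-day group, 3943 CPM against 18140 and 13400 CPM in replicates 1 and 3. Without the 3 libraries rich in nerve markers, the 14-day and 28-day log2 fold changes of Pdgfd against sham were both −1.49.

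Pdgfc encodes the PDGF-C chain, which fibroblasts and macrophages are known to make and which acts on PDGFR-alpha (Entrez 54635, ENSMUSG00000028019, GRCm38.p6 chromosome 3, 81036416 to 81214040, plus strand). Its levels were 25.5, 68.2 and 24.6 CPM at 14 days, 26.7, 14.8 and 26.7 CPM at 28 days, and 22.1, 13.95 and 19.2 CPM in sham. The 14-day libraries were all above the sham libraries, 2 of them narrowly, while the 28-day and sham libraries overlapped. The 14-day level was 2.14-fold that of sham (log2 1.10 ± 0.45 SE, edgeR adjusted p = 0.19, DESeq2 adjusted p = 0.0947). Without replicate 2 of that group the log2 fold change was 0.46. The same library had a macrophage marker sum of 11110 CPM, against 2010 and 2322 CPM in replicates 1 and 3, and 9 of 9 macrophage markers had an edgeR p under 0.05 at 14 days; their part in the Pdgfc values was not tested. At 28 days Pdgfc was at 0.31 ± 0.44 relative to sham (edgeR adjusted p = 0.88), and at −0.79 ± 0.44 relative to 14 days (edgeR adjusted p = 0.774).

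Pdgfb encodes the PDGF-B chain, made by endothelial cells, platelets and macrophages (Entrez 18591, ENSMUSG00000000489, GRCm38.p6 chromosome 15, 79995865 to 80024614, minus strand). It had 50.7, 130.9 and 47.6 CPM at 14 days, 92.8, 52.9 and 68.1 CPM at 28 days, and 59.1, 36.3 and 56.2 CPM in sham. Both Ang II groups overlapped sham. The log2 fold changes against sham were 0.60 ± 0.43 at 14 days (edgeR adjusted p = 0.441) and 0.49 ± 0.43 at 28 days (edgeR adjusted p = 0.733). Leaving out replicate 2 at 14 days gave −0.02 for 14 days. That library also had the highest sum of the 7 platelet and megakaryocyte markers, 359 CPM, against 31.6 and 43.4 CPM in the other 14-day libraries, 53.2 to 88.5 CPM at 28 days and 20.6 to 28.3 CPM in sham. Among these markers Gp6, Treml1 or Gp9 was at 0 in 8 of the 9 libraries. Of the 4 markers tested, 3 had positive and 1 negative log2 fold changes at 14 days against sham. At an edgeR p under 0.05, 2 were higher. Replicate 2 at 14 days also had the highest macrophage sum, 11110 CPM, and the lowest endothelial sum, 851.9 CPM, of all 9 libraries. The part of any of these cell types in the Pdgfb values was not tested.

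Stretches of 250 bases before a RefSeq start of Pdgfa, Pdgfc and Pdgfd are shown because these ligand genes had the lowest unadjusted p among the PDGF genes, and that of Fgf2 because it is the FGF member with the larger difference from sham at 28 days. They are RefSeq sequences of GRCm38.p6, given 5′ to 3′ on the strand of the gene, and capitals mark the motif matches described next. The windows are chr5:138994945-138995194 (minus strand) for Pdgfa, at the start farther upstream of the 2 listed, chr3:81036166-81036415 (plus) for Pdgfc, chr9:6168236-6168485 (plus) for Pdgfd and chr3:37348403-37348652 (plus) for Fgf2. The start used for the Pdgfc window is the RefSeq gene start given above. Those of Pdgfd, Fgf2 and Pdgfa lie 123, 176 and 5848 bases inside the RefSeq gene, so their windows lie partly or wholly within it.
Pdgfa: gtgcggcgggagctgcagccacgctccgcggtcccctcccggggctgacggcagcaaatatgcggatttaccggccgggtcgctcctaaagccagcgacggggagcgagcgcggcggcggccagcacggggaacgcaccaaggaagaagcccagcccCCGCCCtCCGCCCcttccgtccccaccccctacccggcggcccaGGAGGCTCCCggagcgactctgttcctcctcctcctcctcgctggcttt
Pdgfc: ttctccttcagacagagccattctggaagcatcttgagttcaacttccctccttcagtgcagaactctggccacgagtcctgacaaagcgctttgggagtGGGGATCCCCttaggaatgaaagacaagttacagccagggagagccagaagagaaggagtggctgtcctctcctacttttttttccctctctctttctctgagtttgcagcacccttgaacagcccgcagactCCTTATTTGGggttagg
Pdgfd: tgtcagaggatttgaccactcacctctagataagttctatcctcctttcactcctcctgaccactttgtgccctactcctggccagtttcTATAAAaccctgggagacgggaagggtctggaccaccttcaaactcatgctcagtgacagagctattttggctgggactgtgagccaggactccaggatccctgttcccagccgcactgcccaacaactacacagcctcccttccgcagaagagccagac
Fgf2: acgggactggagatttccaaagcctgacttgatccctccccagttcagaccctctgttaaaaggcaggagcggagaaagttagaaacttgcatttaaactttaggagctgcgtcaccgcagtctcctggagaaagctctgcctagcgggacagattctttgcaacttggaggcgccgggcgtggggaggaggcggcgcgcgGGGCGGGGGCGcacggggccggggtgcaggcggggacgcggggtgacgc

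The motifs searched on both strands were the Sp1 GC box (GGGCGG), EGR1 (GCGNGGGCG), AP-1 (TGANTCA), the TATA box (TATAAA), the CArG box bound by serum response factor and the NF-kB site. The Pdgfa window had 72.4% G and C bases, against a median of 52.4% over 32851 promoter windows of the same length. It held 2 GC boxes, at −93 to −88 and −86 to −81 from the RefSeq start, and an NF-kB match at −49 to −40. The Pdgfc window held a CArG box at −17 to −8 and an NF-kB match at −150 to −141. That of Pdgfd held a TATA match at −160 to −155 from the start used for its window. This is −37 to −32 from the RefSeq gene start given above. In Fgf2 a GC box at −49 to −44 overlapped an EGR1 match at −47 to −39. Of all windows, 32.7% held a GC box, 4.7% EGR1, 6.75% AP-1, 12.4% TATA, 1.47% a CArG box and 7.25% an NF-kB match. The Pdgfra window held no match. A match describes the letters only, and no binding was measured.

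The share of Pdgfb in the PDGF ligand genes was higher in every Ang II library than in sham, although its level overlapped sham. Each library's 4 ligand levels were divided by gene length (CPM per kb of exon) and given as shares of their sum. Pdgfb made up 25.0%, 41.7% and 26.7% of the pool at 14 days, 44.9%, 42.6% and 42.3% at 28 days, and 18.7%, 24.6% and 22.8% in sham. The 28-day libraries were far above the sham range, and replicate 1 at 14 days was just above it. Pdgfa averaged 37.4 ± 2.43% at 14 days, 30.8 ± 3.41% at 28 days and 44.4 ± 6.19% in sham (SD, n = 3 each). Pdgfc averaged 13.4 ± 4.15% at 14 days, 11.5 ± 2.05% at 28 days and 6.75 ± 1.05% in sham, with every Ang II library above every sham library. Pdgfd averaged 18.1 ± 11.7% at 14 days, where replicate 2 was at 4.97%, 14.4 ± 1.69% at 28 days and 26.8 ± 4.22% in sham. Shares of 1 pool are not independent of each other, since a higher share of one ligand lowers the others.

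The ratio of Pdgfb to Pdgfa per kb of exon was 0.674, 1.18 and 0.667 at 14 days, 1.59, 1.23 and 1.43 at 28 days, and 0.366, 0.57 and 0.585 in sham. The mean was 0.841 ± 0.296 at 14 days, 1.41 ± 0.18 at 28 days and 0.507 ± 0.123 in sham (SD, n = 3 each). All 28-day libraries were above all 14-day libraries, and these were above all sham libraries. The ratio was chosen after the values were seen, so it is a description with no test, and an exact permutation of 3 libraries against 3 could give no two-sided p under 0.1. Summed over the 4 ligands, the level was 68.9, 107 and 60.6 CPM per kb at 14 days, 70.3, 42.2 and 54.8 CPM per kb at 28 days, and 107, 50.2 and 83.7 CPM per kb in sham, and the 3 groups overlapped.

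**Figure D2:**
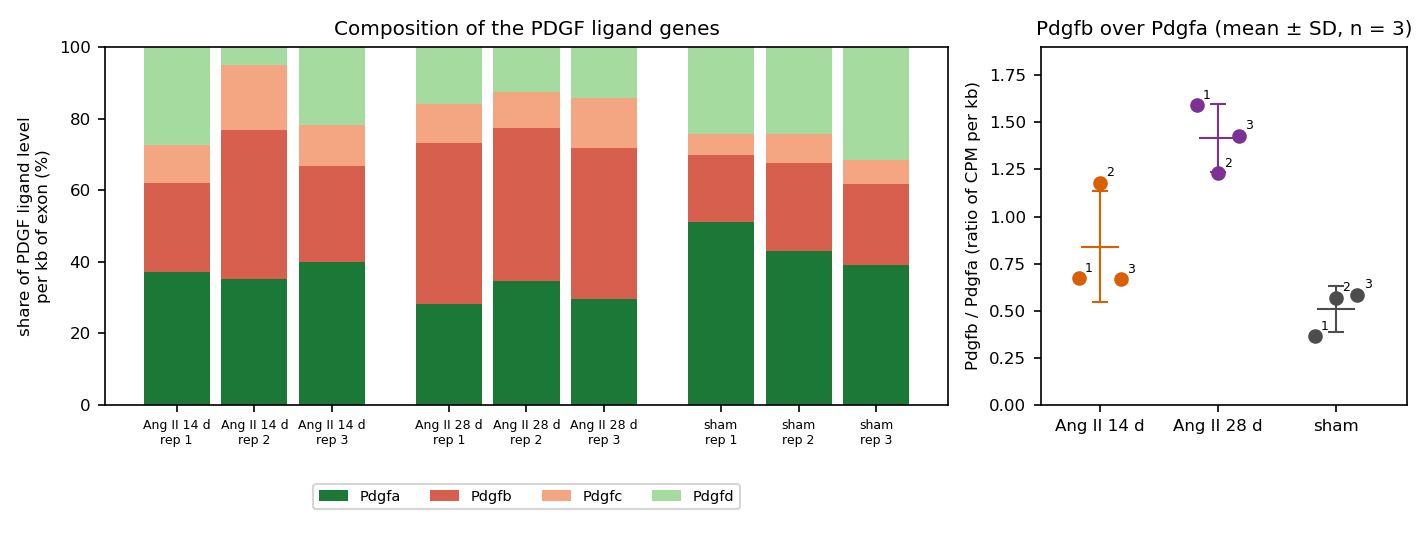
Share of each PDGF ligand gene in the summed level of the 4 ligands, in percent of CPM per kb of exon, for each of the 9 libraries (left), and the ratio of Pdgfb to Pdgfa per library with the mean ± SD, n = 3 (right). Pdgfb takes 42.3% to 44.9% at 28 days, 25.0% to 41.7% at 14 days and 18.7% to 24.6% in sham, and the ratio is 1.23 to 1.59 at 28 days, 0.667 to 1.18 at 14 days and 0.366 to 0.585 in sham.

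Pdgfrb encodes PDGFR-beta, the receptor of pericytes, smooth muscle cells and fibroblasts (Entrez 18596, ENSMUSG00000024620, GRCm38.p6 chromosome 18, 61045127 to 61085067, plus strand). Its levels were 179.6, 565 and 155 CPM at 14 days, 181, 108 and 176 CPM at 28 days, and 273, 89.6 and 198 CPM in sham. Replicate 2 at 14 days stood far above the 8 other libraries, which formed 1 overlapping range. The log2 fold change against sham was 0.68 ± 0.58 at 14 days (edgeR adjusted p = 0.522) and −0.14 without that library. At 28 days it was −0.27 ± 0.58 (edgeR adjusted p = 0.93). The 7 pericyte markers summed to 524 CPM in replicate 2 at 14 days, the lowest of its group, and to 1731 and 2591 CPM in the other 14-day libraries. At 14 days against sham 2 of the 7 had positive and 5 negative log2 fold changes, and 1 was higher at an edgeR p under 0.05. The 9 adventitial fibroblast markers summed to 4762 CPM in replicate 2 at 14 days, against 4668 and 3038 CPM in replicates 1 and 3. The part of either set in the Pdgfrb values was not tested.

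Pdgfra encodes PDGFR-alpha, a receptor that marks fibroblasts (Entrez 18595, ENSMUSG00000029231, GRCm38.p6 chromosome 5, 75151322 to 75198206, plus strand). It had 57.8, 82.7 and 46.6 CPM at 14 days, 55.9, 37.5 and 67.0 CPM at 28 days, and 28.9, 36.2 and 54.8 CPM in sham. Its mean was higher in both Ang II groups, but each overlapped sham. The log2 fold change was 0.64 ± 0.33 at 14 days (edgeR adjusted p = 0.277) and 0.42 ± 0.33 at 28 days (edgeR adjusted p = 0.693). The sum of the 9 fibroblast markers was also higher, at 3038 to 4762 CPM at 14 days, 2271 to 4811 CPM at 28 days and 1762 to 3027 CPM in sham. At an edgeR p under 0.05, 3 of the 9 were higher at 14 days, and 3 were higher and 1 lower at 28 days; their part in the Pdgfra values was not tested.

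Per kb of exon Pdgfra was well below Pdgfrb in every library. The ratio of Pdgfra to Pdgfrb was 0.201, 0.0914 and 0.188 at 14 days, 0.193, 0.217 and 0.238 at 28 days, and 0.066, 0.252 and 0.173 in sham. The 3 groups overlapped, with means of 0.16 ± 0.0599, 0.216 ± 0.0223 and 0.164 ± 0.0935 at 14 days, at 28 days and in sham (SD, n = 3 each). The receptors differed in replicate 2 at 14 days mainly through Pdgfrb, which gave that library the lowest ratio of its group.

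Fgf2 encodes basic FGF, a growth factor for smooth muscle and endothelial cells (Entrez 14173, ENSMUSG00000037225, GRCm38.p6 chromosome 3, 37348477 to 37410106, plus strand). It had 69.2, 41.1 and 68.0 CPM at 14 days, 53.6, 28.1 and 28.6 CPM at 28 days, and 84.6, 48.0 and 65.0 CPM in sham. Of the 28-day libraries, 2 were below every other library and the third lay within the sham range. The 28-day level was 1.79-fold lower than in sham (log2 −0.84 ± 0.34 SE, edgeR adjusted p = 0.33, DESeq2 adjusted p = 0.182). At 14 days the log2 fold change was −0.15 ± 0.34 (edgeR adjusted p = 0.814). Its exons share 640 bases with Nudt6 on the opposite strand, and without stated strandedness the reads of both cannot be told apart. The same holds for antisense genes that were not analysed here and share 813 exon bases with Pdgfa, 456 with Pdgfra, 164 with Fgfr1 and 147 with Pdgfc. Nudt6, a Nudix hydrolase gene, averaged 12.8 ± 4.81 CPM at 14 days, 15.7 ± 4.79 CPM at 28 days and 18.6 ± 2.04 CPM in sham (SD, n = 3 each).

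Fgfr1 encodes the main FGF receptor of mesenchymal cells (Entrez 14182, ENSMUSG00000031565, GRCm38.p6 chromosome 8, 25518759 to 25575718, plus strand). It had 200.3, 171 and 172 CPM at 14 days, 169, 105 and 170.1 CPM at 28 days, and 253, 169.7 and 227 CPM in sham. The 28-day libraries were all below the 14-day libraries, by a small margin for 2 of them, and both groups overlapped sham. Against sham the log2 fold change was −0.26 ± 0.24 at 14 days (edgeR adjusted p = 0.558) and −0.55 ± 0.24 at 28 days (edgeR adjusted p = 0.37). Fgfr1 varied least of the 8 genes, with a mean absolute deviation of 0.232 log2 units over the 9 libraries, and Pdgfd most, with 0.677.

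On the scale of CPM per kb of exon, Fgfr1 or Pdgfrb was the highest of the 8 genes in every library except replicate 1 of sham, where Pdgfa was first at 54.9. Fgfr1 was at 34.7 ± 3.21 at 14 days, 28.4 ± 7.10 at 28 days and 41.5 ± 8.20 in sham (SD, n = 3 each), and Pdgfrb at 54.8 ± 42.0, 28.3 ± 7.47 and 34.1 ± 16.9. These neighbours did not differ beyond their spread. Pdgfb was at 25.9 ± 16.0, 24.2 ± 6.85 and 17.2 ± 4.22, and Pdgfa at 29.1 ± 7.34, 16.9 ± 2.69 and 36.4 ± 16.97, in the same order of groups. In sham Pdgfa was above Pdgfrb in replicates 1 and 2, and in replicate 2 at 14 days both ligand genes were above Fgfr1. Pdgfb was above Pdgfa in all 28-day libraries and in replicate 2 at 14 days, and below it in the 5 others. This order turned in places with the longest transcript as length, which is 2060 bases for Pdgfa in place of 2942. The ratio of Pdgfb to Pdgfa was then 0.829 in replicate 2 at 14 days and 1.11, 0.859 and 1.0 at 28 days. Pdgfa was then the highest gene in replicate 3 of sham and replicate 3 at 14 days too. In the latter it was at 34.6 against 34.1 for Fgfr1. Fgf2, Pdgfc and Pdgfra filled the last 3 ranks outside replicate 2 at 14 days, with group means of 4.56 to 11.2. Pdgfd was above them in sham, at 21.6 ± 8.11, but was the lowest of all 8 in replicate 2 at 14 days, at 5.30.

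Read against all genes, the members' counts were as follows. At 14 days 1 of the 8, Pdgfc, was higher than sham at an unadjusted edgeR p under 0.05, and 0 were lower, while 23.5% of all tested genes passed in either direction and 13.1% did so as higher. With the replicate block, and without the 3 nerve-rich libraries, Pdgfc did not pass and Pdgfd did so as lower. At 28 days 3 of the 8, Pdgfa, Pdgfd and Fgf2, were lower and 0 higher, beside 13.9% of all genes in either direction and 5.89% lower. Between 28 and 14 days 0 of 8 passed, beside 6.13% of all genes. The 3 comparisons share groups of libraries and are not independent of each other. By groups that do not overlap, 1 of 8 was above sham at 14 days (26.1% of all genes in either direction, 12.6% above). At 28 days 2 of 8 were below sham (21.7% of all genes in either direction, 9.46% below). Against 14 days, 2 of 8 were below at 28 days, Pdgfa and Fgfr1 (10.1% of all genes in either direction, 5.71% below and 4.35% above). The median log2 fold change of the 8 genes was 0.22 at 14 days against sham, −0.41 at 28 days against sham and −0.65 at 28 days against 14 days, beside −0.07, −0.08 and −0.05 over all tested genes. In the last comparison all 8 values were negative. Without replicate 2 at 14 days, the medians of the 8 were −0.08 at 14 days against sham and −0.23 at 28 days against 14 days, beside −0.04 and −0.03 over all genes, and 2 of the 8 were positive in the last comparison. A test of any difference among the 3 groups gave Pdgfa an edgeR p of 0.0343 (adjusted p = 0.254), beside 17.9% of all genes at an unadjusted p under 0.05, and an adjusted p of at least 0.302 for the 7 others. DESeq2 called 0, 1 and 0 of the 8 in the 3 comparisons, beside 13.4%, 6.62% and 0.805% of all genes. At an unadjusted p under 0.05 DESeq2 passed 1, 4 and 1 of them, beside 27.4%, 16.3% and 8.87% of all genes, and 3 in the test among the 3 groups, beside 24.7%. At its adjusted p that test gave 11.5% of all genes.

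**Figure D3:**
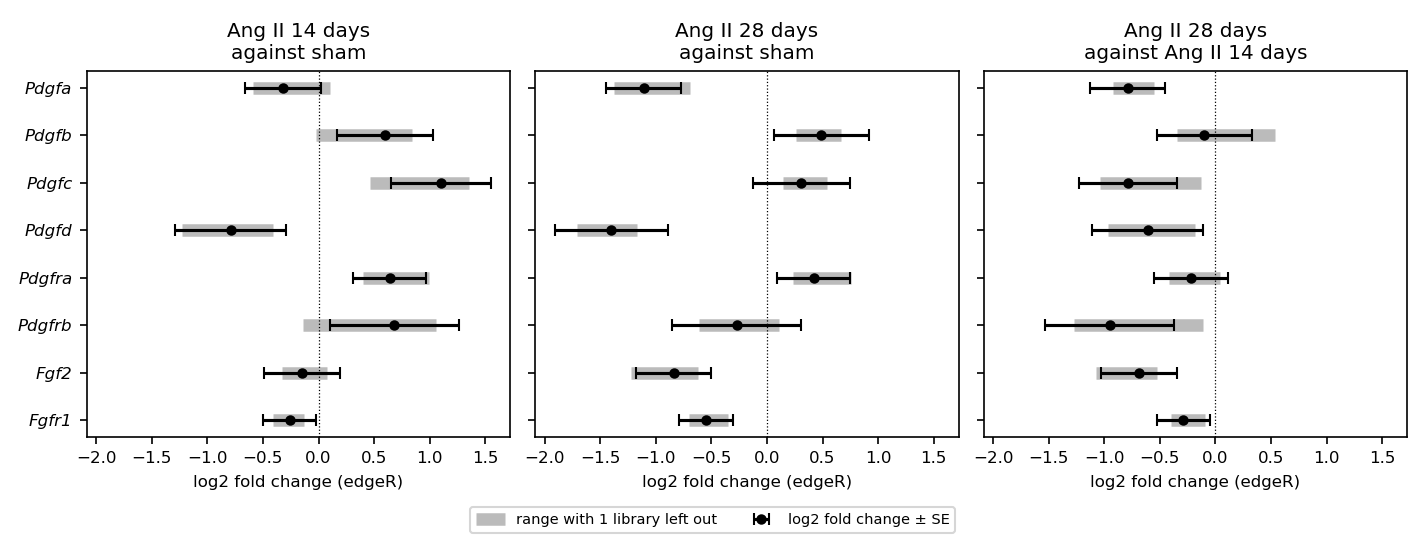
Log2 fold change of each gene (x axis, edgeR) in the 3 comparisons, with bars for the SE and grey bands for the range with 1 library left out. Pdgfa and Pdgfd at 28 days against sham lie at −1.11 and −1.40 and stay negative in their bands, whereas the 14-day bands of Pdgfb and Pdgfrb cross 0.

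The closest pairs of members over the 9 libraries were Fgf2 with Fgfr1, and Pdgfc with Pdgfb and with Pdgfrb. Likeness was the mean absolute difference of log2 CPM centred on each gene's mean. It was 0.249 log2 units for Fgf2 and Fgfr1, 0.264 for Pdgfb and Pdgfc and 0.267 for Pdgfc and Pdgfrb. It was 0.275 for Pdgfa and Fgfr1 and 0.379 for Pdgfb and Pdgfrb, and the farthest pair was Pdgfb and Pdgfd at 1.03. Among all other tested genes, the pair most like Pdgfa was Adamts10 (0.11) and Slc12a4 (0.126), and for Pdgfd it was Ntn1 (0.139) and Slmap (0.159). Pdgfb was closest to Eef1akmt4 (0.122) and Sec16b (0.129), and Pdgfc to Ppic (0.108) and Anxa4 (0.132). Pdgfrb lay closest to Mxra8 (0.101) and to Lrp1 (0.114), an endocytic receptor that binds PDGFR-beta. Pdgfra was closest to Bicc1 (0.123) and Wdr66 (0.132), Fgf2 to Tmem200b (0.116) and Mafk (0.132), and Fgfr1 to Rassf8 (0.08) and Fzd8 (0.085). These distances are over 9 libraries that share their scaling, and carry no test.

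**Figure D4:**
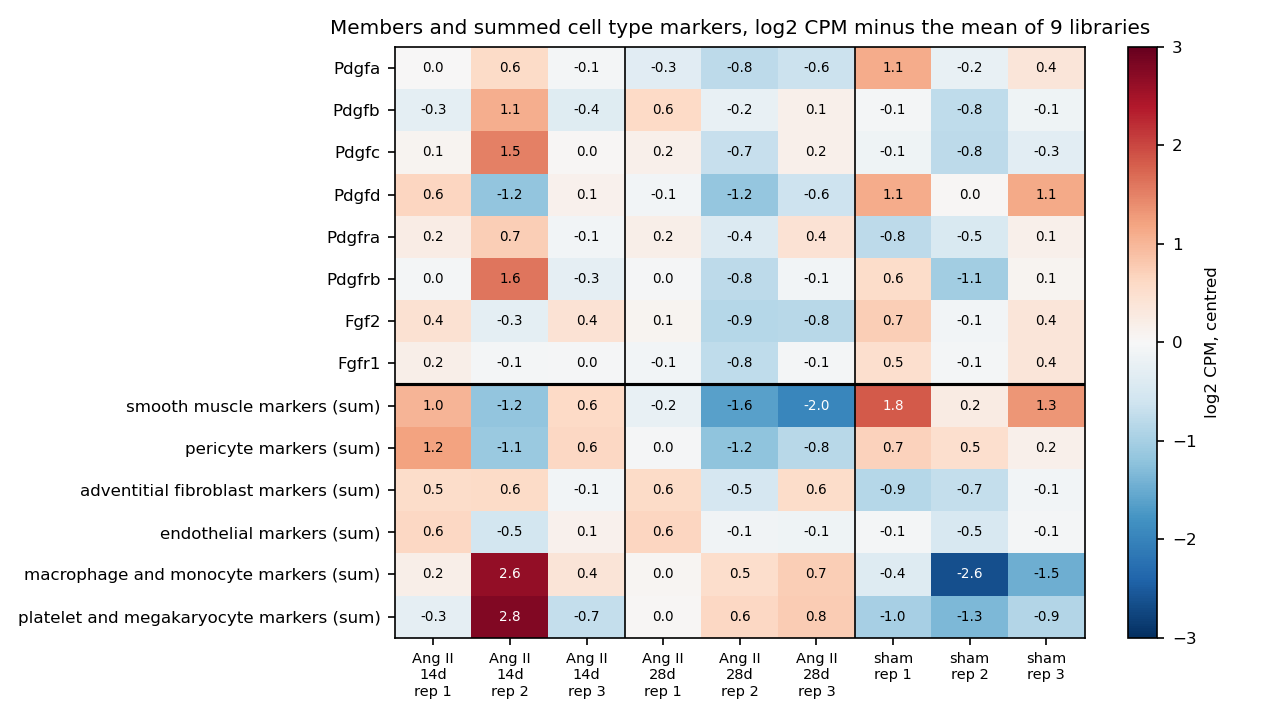
Log2 CPM of the 8 genes (upper rows) and of summed cell type markers (lower rows) minus the mean of the 9 libraries, by library, with red above and blue below that mean. In replicate 2 at 14 days, Pdgfb, Pdgfc and Pdgfrb are high together with the macrophage and platelet sums, and Pdgfd is low together with the smooth muscle and pericyte sums. Pdgfa and Pdgfra also lie above their means in that library, by 0.57 and 0.74.

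Of 120 other genes of these pathways, 112 were tested. At an unadjusted edgeR p under 0.05, 17 (15.2%) were higher and 7 (6.25%) lower at 14 days than in sham, beside 13.1% and 10.4% of all genes. At 28 days 7 (6.25%) were higher and 9 (8.04%) lower than in sham, beside 7.96% and 5.89%. Relative to 14 days, 6 (5.36%) were higher and 7 (6.25%) lower at 28 days, beside 3.86% and 2.27%. These shares were near those of all genes at both times against sham, and 0 of the 112 passed an adjusted p of 0.05 in edgeR. The same shares of all genes stand beside the counts of each list below. DESeq2 at an adjusted p of 0.05 called 13.4%, 6.62% and 0.805% of all genes in the 3 comparisons. By list, in the order below, it called 1, 0, 1, 3, 2, 2 and 3 genes higher at 14 days. It called 0, 0, 0, 0, 3, 0 and 1 lower. At 28 days against sham these were 0, 0, 0, 1, 0, 0 and 2 higher. Lower were 0, 1, 0, 0, 1, 0 and 0. Between times it called Kdr as higher and Fgfr2 as lower. The genes named next are those with the smallest p of their list.

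The 10 tested FGF family genes other than Fgf2 were not all secreted ligands. At 14 days 1 of them was higher and 2, Fgf11 and Fgf14, were lower at an unadjusted p under 0.05. Fgf7, the keratinocyte growth factor made by mesenchymal cells, had 18.2, 22.4 and 8.55 CPM at 14 days, against 5.65, 6.15 and 6.76 CPM in sham. All 14-day libraries were above sham (log2 1.40 ± 0.39 SE, edgeR adjusted p = 0.119), and Fgf7 was at −0.94 ± 0.39 at 28 days relative to 14 days. Fgf14, an intracellular FGF homologue of neurons that binds sodium channels, averaged 4.81 ± 2.70 CPM at 14 days, 4.90 ± 2.58 CPM at 28 days and 12.0 ± 4.76 CPM in sham (SD, n = 3 each). Its value was highest, at 16.7 CPM, in replicate 2 of sham, the library richest in nerve markers.

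Of 5 tested FGF receptors and co-receptors other than Fgfr1, 0 passed an unadjusted p of 0.05 at 14 days and 1, Fgfr2, did so at 28 days, as lower. Fgfr2, the receptor of FGF7 in its epithelial form, had 45.3, 20.0 and 40.1 CPM at 14 days, 15.5, 10.3 and 9.04 CPM at 28 days, and 57.5, 34.3 and 52.5 CPM in sham. The 28-day libraries were all below those of both other groups. The log2 fold change at 28 days was −2.05 ± 0.37 against sham (edgeR adjusted p = 0.203, DESeq2 adjusted p = 4.8e-05) and −1.60 ± 0.36 against 14 days (edgeR adjusted p = 0.77, DESeq2 adjusted p = 0.00812).

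Among 9 genes of PDGF processing and co-receptors, 1 was higher at 14 days and 0 passed at 28 days against sham by the unadjusted p. Plau, urokinase, a protease that activates PDGF-D, had 38.8, 86.2 and 29.4 CPM at 14 days, against 23.9, 12.2 and 13.6 CPM in sham (log2 1.64 ± 0.44 SE, edgeR adjusted p = 0.117, DESeq2 adjusted p = 0.00607). All 14-day libraries were above sham, and the log2 fold change fell to as low as 1.07 with 1 library left out.

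Of 19 heparan sulfate proteoglycans and their enzymes, which hold FGF2 in the matrix, 4 were higher at 14 days. These were Sdc1, Sdc3, Ndst2 and Hpse. Hpse, heparanase, which cuts heparan sulfate chains, averaged 32.9 ± 20.7 CPM at 14 days, 24.0 ± 12.2 CPM at 28 days and 6.65 ± 3.68 CPM in sham (SD, n = 3 each). Its log2 fold change was 2.31 ± 0.63 at 14 days (edgeR adjusted p = 0.117, DESeq2 adjusted p = 0.00408) and 1.86 ± 0.62 at 28 days (edgeR adjusted p = 0.251). Syndecan genes, which encode cell surface proteoglycans, were at 1.74 ± 0.47 for Sdc1 and 1.75 ± 0.53 for Sdc3 at 14 days. Without replicate 2 at 14 days these log2 fold changes were 1.68 for Hpse, 1.06 for Sdc1 and 1.0 for Sdc3, and that library had 56.8, 187 and 812 CPM of the 3 genes. At 28 days 1 of the 19, Hpse, was higher than in sham and 4 were lower by the unadjusted p. The shares over all genes were 7.96% higher and 5.89% lower. Of the 4 lower, Sdc2 and Gpc6 had the smallest p, at −0.50 ± 0.18 and −1.05 ± 0.38 (edgeR adjusted p = 0.267 and 0.271). At 28 days relative to 14 days 18 of the 19 had negative log2 fold changes. Of these, 3 were at an unadjusted p under 0.05, beside 2.27% of all genes lower at that p. The median of the 19 was −0.41, beside −0.05 over all tested genes. Some of the 18 turned positive with 1 library left out, among them Hpse, at up to 0.20.

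Of 36 adaptors and kinases downstream of the receptors, 3 were higher and 3 lower at 14 days, and 2 were higher and 3 lower at 28 days, by the unadjusted p. Fyn, a Src family kinase also used by lymphocytes, was at 66.8 ± 20.6 CPM at 14 days, 57.0 ± 11.7 CPM at 28 days and 31.6 ± 7.29 CPM in sham (SD, n = 3 each). The 8 T and B lymphocyte markers summed to 73.7 to 1512 CPM at 14 days, 38.8 to 969.9 CPM at 28 days and 10.4 to 19.0 CPM in sham, with none at 0. By the unadjusted p, 8 of 8 were higher at 14 days and 7 of 8 at 28 days; their part in the Fyn values was not tested. Src averaged 18.4 ± 3.92 CPM at 28 days and 29.9 ± 3.93 CPM in sham (log2 −0.70 ± 0.21 SE, edgeR adjusted p = 0.221). Hras and Sos2, of the Ras step, were at −0.55 ± 0.16 and −0.42 ± 0.13 at 14 days (edgeR adjusted p = 0.128 and 0.127).

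Of 19 feedback inhibitors and target transcription factors, 4 were higher at 14 days and 0 passed the unadjusted p at 28 days in either direction. Ptpn1, a phosphatase that acts on receptor tyrosine kinases, averaged 160.0 ± 90.7 CPM at 14 days and 60.1 ± 7.81 CPM in sham (SD, n = 3 each; log2 1.41 ± 0.37 SE, edgeR adjusted p = 0.117, DESeq2 adjusted p = 0.00644). Replicate 2 at 14 days had 264.4 CPM of Ptpn1, against 99.99 and 115.5 CPM in replicates 1 and 3. The log2 fold change of Ptpn1 fell to as low as 0.86 with 1 library left out. Dusp5, a phosphatase of ERK, was at 1.75 ± 0.49 (edgeR adjusted p = 0.119), and the ubiquitin ligase gene Cblb at 0.68 ± 0.25 (edgeR adjusted p = 0.167). The Sprouty, Spred and Etv genes, which ERK signalling induces, were not among the genes that passed in any comparison.

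Of 14 related growth factors and receptors, 4 were higher and 2 lower at 14 days, and 4 were higher and 0 lower at 28 days. Pgf, placental growth factor, had 13.9, 25.1 and 14.0 CPM at 14 days, against 5.22, 5.79 and 3.65 CPM in sham (log2 1.85 ± 0.37 SE, edgeR adjusted p = 0.117, DESeq2 adjusted p = 0.000357). At 28 days Flt4, the receptor of VEGF-C, had 39.5, 37.3 and 38.0 CPM, against 14.4, 23.0 and 13.5 CPM in sham (log2 1.17 ± 0.23 SE, edgeR adjusted p = 0.203, DESeq2 adjusted p = 0.00107). Kdr, the main VEGF-A receptor, had 226, 136 and 147 CPM at 28 days, against 67.7, 81.8 and 99.3 CPM in sham (log2 1.03 ± 0.25 SE, edgeR adjusted p = 0.205, DESeq2 adjusted p = 0.00749). In these 3 genes the Ang II libraries given were all above the sham libraries. The same held for 12.6% of all tested genes at 14 days and 12.2% at 28 days. Kdr is also 1 of the 9 endothelial markers, of which 4 were higher at 28 days by the unadjusted p. Csf1r, the macrophage receptor related in structure to the PDGF receptors and 1 of the 9 macrophage markers, was at 1.92 ± 0.53 at 14 days and 1.40 ± 0.52 at 28 days (edgeR adjusted p = 0.117 and 0.283). It had 151, 519 and 145 CPM at 14 days, and its log2 fold change there was 1.06 without replicate 2.

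**Figure D5:**
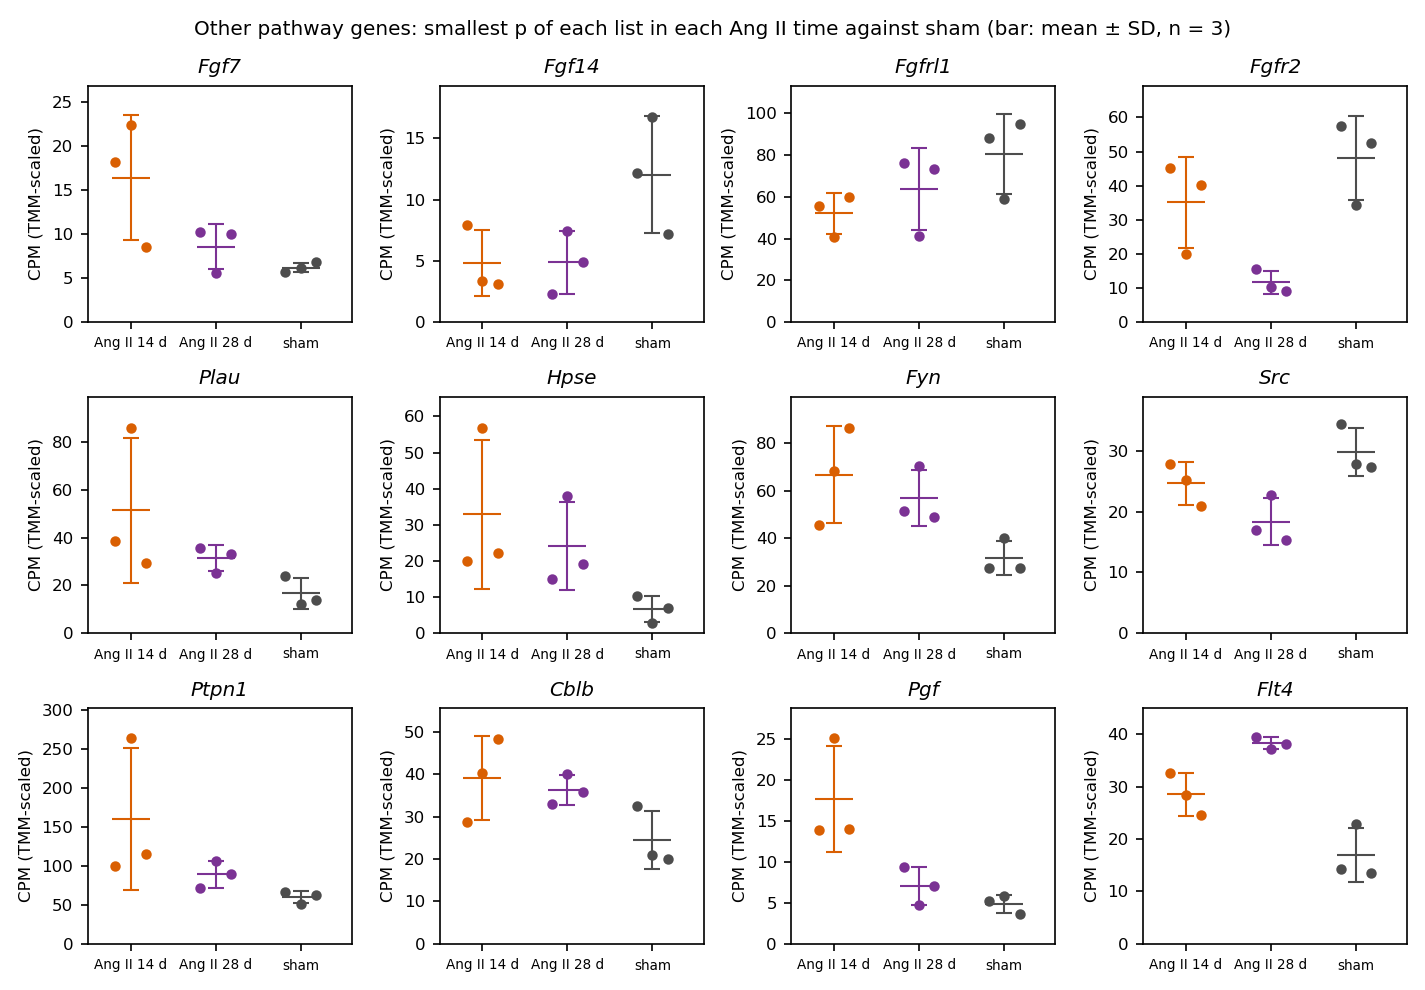
CPM of the genes with the smallest p of their list at 14 or 28 days against sham, by library, with the mean ± SD (n = 3). The 28-day libraries of Fgfr2 lie at 9.04 to 15.5 CPM, below the 34.3 to 57.5 CPM of sham, and those of Flt4 at 37.3 to 39.5 CPM lie above the 13.5 to 23.0 CPM of sham.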

How the data were processed

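Per the labels, TRIzol extracts of aortic RNA went into the MGIEasy mRNA library kit. The files deposited by the authors hold 1 expected count (an estimated count) for each gene and library, and 9.77% to 11.0% of the genes per library had a count that was not whole. The submitters' processing notes name RSEM 1.3.1, HISAT2 2.2.1, Bowtie2 2.4.5 and build GRCm38.p6. What each aligner did, and whether the libraries are stranded, is not given in the sources used here.

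Counts were rounded to whole numbers. Entrez IDs gave a symbol for 18775 of 18830 genes, and 55 had none. In R 4.3.3, edgeR 4.0.16 kept 14741 genes (filterByExpr), scaled libraries by TMM factors and fitted its robust quasi-likelihood model to all 9 libraries with a term for each group. P-values of a comparison were adjusted by Benjamini-Hochberg over all tested genes, with a threshold of 0.05. The SE was computed as the absolute log2 fold change divided by the root of the F statistic. The common dispersion of 0.263, a biological coefficient of variation of 51.3%, limits what 3 libraries per group can show. Totals of 9609690 to 14923936 counts set the counting error. The script was tested on simulated counts. DESeq2 1.42.0 was an alternative.

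Shares and ratios between genes are CPM per kb of merged protein-coding exons (GENCODE, GRCm38). FPKM values had been planned for them, and expected counts were used in their place. The members, the lists of other pathway genes and markers and the tests were chosen with earlier results of these data known. The rule for naming took the 8 members, the 3 genes with the smallest p of each pathway list in each comparison, and the 2 genes most like each member. Of these, 1 gene is not reported here. Ndst2, Nudt6 and the ratio of Pdgfb to Pdgfa were chosen after their values were seen. Other settings were DESeq2, RLE factors, no filter on low counts, at least 5 CPM in 3 libraries, a block for the replicate number, fits of only the 2 groups compared, leaving out each library, and 3 more chosen after seeing the data. Gene starts and ends and promoter windows are from RefSeq.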

Additional observations from a re-analysis of the deposited data

How the results depend on the processing

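Of the members' log2 fold changes under other settings, 397 kept their direction and side of the threshold, 10 reversed and 1 became stronger (Pdgfa at 28 days against sham with DESeq2, −1.09). The cause of the reversals was not tested. Without replicate 1 of sham, 14 days against sham gave 0.10 for Pdgfa and 0.07 for Fgf2, and 28 days against sham gave 0.11 for Pdgfrb. Without replicate 2 at 14 days, 14 days against sham gave −0.02 for Pdgfb, −0.14 for Pdgfrb and 0.08 for Fgf2, and 28 against 14 days gave 0.54 for Pdgfb and 0.04 for Pdgfra. Without replicate 2 at 28 days, 28 against 14 days gave 0.08 for Pdgfb, and without the 2 libraries rich in skeletal muscle it gave 0.10 for Pdgfra. The other ends of these ranges with 1 library left out were −0.59 for Pdgfa, 0.84 for Pdgfb, 1.06 for Pdgfrb and −0.33 for Fgf2 at 14 days, −0.61 for Pdgfrb at 28 days, and −0.35 for Pdgfb and −0.42 for Pdgfra between times.

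DESeq2 called 1970, 970 and 118 genes in the comparisons of 14 days with sham, 28 days with sham and 28 with 14 days, and 1682 in that among the 3 groups, beside 0 by edgeR, which had 3460, 2042, 903 and 2645 at an unadjusted p under 0.05. Called at 14 days was 1 gene with the replicate block, with the 2 groups alone and without the muscle-rich libraries. With 1 library left out, the calls were 0 to 0 at 14 days, 0 to 7 at 28 days, 0 to 0 between times and 0 to 13 among the groups. At 28 days there were 5 without replicate 2 of sham and 7 without replicate 3 at 28 days, and this last left 13 among the groups. Counts at an unadjusted p then ran from 2145 to 4005, 1245 to 2437, 441 to 1294 and 1510 to 3060. Without the muscle-rich libraries they were 741 at 28 days, 329 between times and 1650 among groups, in a fit that leaves 1 library at 28 days, assumed to vary like the others, and without the nerve-rich libraries 2040 between times.

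Members at an unadjusted p under 0.05 were 1 at 14 days with the replicate block and without the nerve-rich libraries, Pdgfd as lower in place of Pdgfc, and 0 with the 2 groups alone and without the muscle-rich libraries, and 1 at 28 days without these. Without the nerve-rich libraries the 3 at 28 days held Fgfr1 in place of Fgf2. Between times 1 passed with DESeq2, RLE factors, no filter, the filter of 5 CPM, the replicate block and the 2 groups alone. Among the 3 groups there were 3 with DESeq2, 2 with the block, 2 without the nerve-rich and 0 without the muscle-rich libraries. With 1 library left out, the members were 0 to 1, 1 to 4, 0 to 1 and 0 to 2. Other pathway genes were then 13 to 21 higher and 2 to 12 lower at 14 days, 4 to 13 higher and 4 to 11 lower at 28 days, and 1 to 6 higher and 3 to 12 lower between times. At 28 days the block gave 15 lower, the 2 groups alone 12 higher, the fit without nerve-rich libraries 3 higher, and that without muscle-rich libraries 3 higher and 3 lower. Between times the fit without nerve-rich libraries gave 12 lower, and that without muscle-rich libraries 1 higher and 3 lower.

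Replicate numbers did not pair the libraries: of 9 same-number pairs 3 correlated above 0.1, from −0.553 to 0.646, and 1 of 9 libraries correlated best with its own number. With the longest transcript as length, Pdgfa took 46.0% at 14 days, 38.8% at 28 days and 53.1% in sham, Pdgfb 38.2% at 28 days and 18.5% in sham, Pdgfc 5.67% in sham, and the ratio of Pdgfra to Pdgfrb was 0.275 at 28 days. In CPM with no length that ratio was 0.256 at 14 days, 0.346 at 28 days and 0.262 in sham, and Pdgfc took 7.82% in sham. The depth limits no member, since all were read in every library; the spread between libraries does.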
